A study of Mus musculus with 16 samples.

Results

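The motile cilium and axoneme genes are the genes from which a beating cilium is built and switched on, and here their transcripts were followed in sorted alveolar macrophages (AMs). The members were taken by symbol from the deposited gene table: every gene whose symbol starts with Cfap, Dnah, Dnai, Dnaaf, Tekt, Rsph, Drc or Spag, or with Ift followed by a digit, and in addition Foxj1, Tppp3, Ccdc78, Cdhr3, 1700016K19Rik, Armh1, Ccdc40, Dynlrb2 and Rfx2. This gave 55 of the 7946 listed genes. Hydin, Ccdc39, Spef2 and Rfx3, also named by the rule, are not analysed here. Female C57BL/6 mice, whose age the labels do not give, had inhaled aerosolized PBS, or the same buffer with Escherichia coli lipopolysaccharide (LPS) at 0.5 mg/ml, for 30 min on 3 occasions per week during 10 weeks. Lung cells that carried CD45, CD11c and Siglec-F on their surface were fixed in methanol, stained inside the cell for p16, a cell cycle inhibitor used as a senescence marker, and sorted into p16-negative and p16-positive fractions at 5000 cells per sample. The 2 treatments and 2 fractions gave 4 groups of 4 libraries, PBS p16-negative, PBS p16-positive, LPS p16-negative and LPS p16-positive. All mice were of the same strain without an engineered allele in the labels. The labels call the replicates biological and say that samples were pooled, and which animals gave which library is not stated. The p-values therefore measure spread among libraries, which may be technical in part.

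A motile cilium is a microtubule shaft, the axoneme, of outer doublets around a central pair. Dynein arms on the doublets slide them against each other, radial spokes and nexin-dynein regulators turn sliding into bending, tektins brace the doublet walls from within, and intraflagellar transport carries the parts to the tip. In the lung such cilia stand on multiciliated airway cells, which clear mucus, whereas AMs are phagocytes that carry none. Forkhead factor Foxj1 and the RFX factors are the main transcriptional switches of these genes in vertebrates, and RFX proteins bind a site named the X-box near the start of many cilium genes.

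The start regions of a few members are printed, picked because they hold an X-box or its core. Most of the members searched held neither. RefSeq promoter windows (GRCm38.p6, 250 bases before to 50 bases after an annotated start) were matched by symbol for 46 of the 55 members. The X-box was searched on both strands in its degenerate 14-letter form, together with its 7-letter core GTTGCCA and the forkhead core TGTTTAC, each on either strand. An X-box lay in the windows of 11 of 46 members (23.9%), against 136 of 6400 matched genes of the table (2.13%) and 580 of 27025 genes with a window (2.15%). The 7-letter core lay in 12 of 46 members (26.1%), against 4.86% of the matched table genes and 5.02% of all genes. Both motifs can share letters, and 19 members (41.3%) held either, 4 of them both, against 6.38% of the matched table genes with either. The forkhead core lay in 2 of 46 members (4.35%), against 3.11% of the matched table genes. A match describes letters only and is not evidence of binding. In the 80-base stretches below, 5′ to 3′ along the gene, capitals mark the letters of an X-box or its 7-letter core. Tekt1, Ccdc78, Cdhr3 and Dnah10 are members that passed the test described further on, and Cfap161, Rsph9 and Cfap45 show X-boxes of members that did not.
Tekt1 (chr11:72361852-72361931, minus strand): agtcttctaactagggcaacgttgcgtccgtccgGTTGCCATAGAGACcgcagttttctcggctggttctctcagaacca
Ccdc78 (chr17:25786527-25786606, plus strand): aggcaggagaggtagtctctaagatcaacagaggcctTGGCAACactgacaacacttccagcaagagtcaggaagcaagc
Cdhr3 (chr12:33092840-33092919, minus strand): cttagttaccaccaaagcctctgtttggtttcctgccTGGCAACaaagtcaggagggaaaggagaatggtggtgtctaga
Dnah10 (chr5:124725055-124725134, plus strand): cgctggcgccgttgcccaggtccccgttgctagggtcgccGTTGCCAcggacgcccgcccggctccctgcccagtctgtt
Cfap161 (chr7:83794851-83794930, minus strand): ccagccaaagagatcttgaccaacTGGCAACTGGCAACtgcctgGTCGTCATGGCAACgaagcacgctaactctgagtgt
Rsph9 (chr17:46144161-46144240, minus strand): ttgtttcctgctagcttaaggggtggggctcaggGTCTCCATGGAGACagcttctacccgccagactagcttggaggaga
Cfap45 (chr1:172521077-172521156, plus strand): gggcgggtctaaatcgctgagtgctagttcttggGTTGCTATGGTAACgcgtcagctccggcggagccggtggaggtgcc
In Tekt1 the 7-letter core opened the X-box, which ended 2 bases before an annotated start. The window of another annotated start of Tekt1 held neither motif. In Ccdc78 and Cdhr3 the core was read on the opposite strand, within 16 bases before the start. In Dnah10 it lay 10 bases after the start. Cfap161 held 3 such cores and an X-box within 34 bases, the last of them overlapping the X-box. Of the 6 matched members that passed the test, Armh1 and Dnah6 held neither motif in their windows. Foxj1 and 1700016K19Rik were not matched.

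Members were sparse in every library. The 55 genes held 9028 of 3734815 UMIs, the molecular tags that count captured transcripts once each. Library totals ran from 13861 to 1176358 UMIs, so that a count of 0 allowed up to 216 CPM (UMIs per 1000000 UMIs of a library) in the shallowest library and up to 2.55 CPM in the deepest. In the PBS p16-negative libraries 1 to 4 the members took 0.298, 0.181, 0.0614 and 0.118% of UMIs, and in the PBS p16-positive libraries 0.433, 0.430, 0.148 and 0.177%. After LPS they took 0.141, 0.113, 0.0468 and 0.0903% in the p16-negative and 0.252, 1.41, 0.164 and 0.124% in the p16-positive libraries. Libraries were set side by side by replicate number, which was not taken to pair the LPS libraries. In all 8 such comparisons the p16-positive library had the higher share. It was higher by 1.37 to 3.51 times in 7 of them, and by 12.5 times where LPS p16-positive replicate 2 was compared. The PBS groups overlapped, and so did the LPS groups. After PBS the mean share was 0.165 ± 0.102% (SD, n = 4) in the p16-negative and 0.297 ± 0.156% in the p16-positive group, and it was 0.0977 ± 0.0396% against 0.488 ± 0.619% after LPS. In bulk RNA a change in the number of cells of a type and a change in RNA per cell cannot be told apart.

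**Figure D1:**
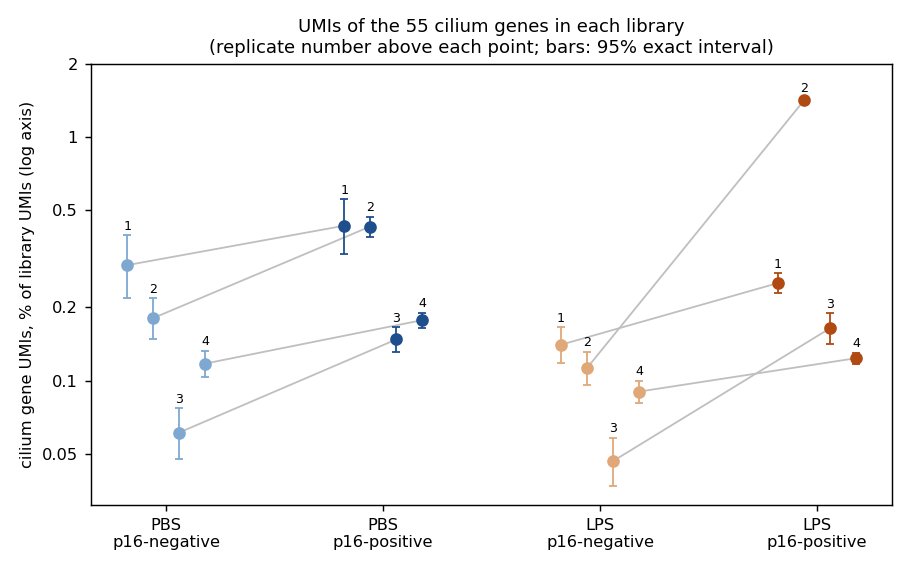
Share of each library's UMIs on the 55 cilium genes, in percent on a log axis, by group. Points are libraries with their replicate number, bars are 95% exact Clopper-Pearson intervals that cover counting error only, and grey lines join libraries of the same number and treatment. The numbers were not taken to pair the LPS libraries. The p16-positive library is the higher one on all 8 lines. LPS p16-positive replicate 2 lies at 1.41%, where the other 15 libraries lie between 0.0468 and 0.433%.

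LPS p16-positive replicate 2 stood apart and carries much of what follows. It held 7.87% of all UMIs but 4152 of the 9028 member UMIs (46.0%). The CPM of 36 of the 55 members was higher there than in any other library, and 30 members had over 50% of their UMIs in it. The labelled cell type was checked on 14 AM markers, all listed, which took 0.390 to 0.884% of UMIs in the other 15 libraries and 0.262% in this one. Among genes of the sorting markers, Siglecf was at 3.40 CPM against a median of 14.5 in the others. It held only 60 UMIs over all libraries, and a count of 0 allowed up to 10.2 CPM in this library. Itgax (CD11c) was at 54.5 CPM against a median of 132, and Ptprc (CD45) at 20.4 against 25.4. Pparg alone of the 14 markers lay above the median of the others, at 30.6 against 22.3 CPM. The 9 listed of 10 secretory airway markers, which include the club cell secretoglobin Scgb1a1 and the mucin Muc5b, took 8.53% of this library's UMIs. In the others their share ran from 0.0426 to 26.8%, highest in the PBS replicate 1 libraries of either fraction, which were also the shallowest. The 11 general epithelial markers, all listed, took 0.544% there and 0.0605 to 0.312% elsewhere. Of 5 basal cell markers Krt15 alone is analysed here, at 0.00579% in this library and at 0 to 0.0131% in the others, highest in PBS p16-positive replicate 2.

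Shares of the marker lists were set beside the p16 fraction, without a test. Pairs here share a number and a treatment, and after LPS the number was not taken to pair the libraries. The endothelial share was higher in the p16-positive library in 4 of 4 same-numbered pairs after either treatment. The general epithelial share was higher in 3 of 4 pairs after PBS and 4 of 4 after LPS, the secretory share in 3 of 4 after either, and the alveolar type I and type II shares each in 4 of 4 after PBS and 2 of 4 after LPS. The AM share was higher in 0 of 4 pairs after PBS and 2 of 4 after LPS. After PBS the general epithelial list took 0.135 to 0.166% of UMIs in p16-negative and 0.141 to 0.312% in p16-positive libraries, and after LPS 0.0605 to 0.103% and 0.0694 to 0.544%. Secretory markers took 0.101 to 17.8% and 0.273 to 26.8% after PBS, and 0.0426 to 0.914% and 0.139 to 8.53% after LPS. Of the alveolar type II list all 7 genes were listed, at 0.396 to 2.58% and 1.25 to 4.94% after PBS and at 0.190 to 2.34% and 0.110 to 1.17% after LPS. Of the endothelial list all 8 were listed, at 0.0810 to 0.451% and 0.490 to 1.12% after PBS, without overlap, and at 0.0172 to 0.0714% and 0.0235 to 0.251% after LPS. The 5 listed of 6 alveolar type I markers did not overlap after PBS either, at 0.00802 to 0.0444% and 0.0501 to 0.164%, and lay at 0.00661 to 0.0555% and 0.00782 to 0.0650% after LPS. The AM list took 0.520 to 0.873% and 0.390 to 0.664% after PBS, and 0.584 to 0.884% and 0.262 to 0.870% after LPS. The part of these cell types in the member values was not tested.

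The main comparison asked which members differed between p16-positive and p16-negative AMs over both treatments, with 8 libraries per fraction. Tests ran on 6516 genes with at least 30 UMIs in all, which kept 40 members. The other 15 held 8 to 28 UMIs. Only 10 members had 30 UMIs in the p16-negative libraries, and 10 passed the minimum only through LPS p16-positive replicate 2, so the direction of the tested members is in part fixed by the minimum. By edgeR's quasi-likelihood test with Benjamini-Hochberg adjustment over all tested genes, 8 of 40 members (20%) were higher in the p16-positive fraction at an adjusted p under 0.05 and none was lower. Of all tested genes 1.41% were called higher. The log2 fold changes of all 40 members were positive, with a median of 2.23, where 56.9% of all tested genes were positive and their median was 0.08. Without LPS p16-positive replicate 2 the calls fell to 2 of 30 members (6.67%), Foxj1 and Ccdc78, against 0.128% of all tested genes, the median of the members was 1.05 and 27 of 30 were positive.

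The transcription factor Foxj1 (chr11:116330704-116335499) rose in the p16-positive fraction. It had 63.5, 214, 34.1 and 17.8 CPM in the PBS p16-negative libraries and 361, 728, 176 and 194 CPM in the PBS p16-positive ones. After LPS it had 99.0, 157, 12 and 37.3 CPM against 453, 3047, 320 and 123 CPM. Every p16-positive library was above the p16-negative one of the same number and treatment. The groups overlapped in PBS through p16-negative replicate 2 and in LPS through p16-positive replicate 4. The log2 fold change was 3.14 (SE 0.62, edgeR adjusted p = 0.0122), and 2.15 (adjusted p = 0.0300) without LPS p16-positive replicate 2. Rfx2, a factor that binds the X-box, held 28 UMIs and was not tested. Its 190 CPM in PBS p16-negative replicate 1 stood for 3 UMIs, and it had 0 to 23.8 CPM in the other 15 libraries.

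Ccdc78 (chr17:25786580-25790513), which acts where multiciliated cells multiply their centrioles to make basal bodies, rose as well. Its level was 0, 49.3, 0 and 4.46 CPM in PBS p16-negative and 361, 162, 41.3 and 90.0 CPM in PBS p16-positive libraries. After LPS it was 0, 35.7, 12 and 7.47 CPM against 112, 871, 42.1 and 33.2 CPM. All 8 p16-positive libraries lay above the p16-negative one of the same number and treatment. In each treatment 1 p16-negative library reached above the lowest p16-positive one. The log2 fold change was 3.98 (SE 0.72, edgeR adjusted p = 0.0116), and 2.61 (adjusted p = 0.0374) without LPS p16-positive replicate 2. Its 3′ end overlaps Fam173a on the opposite strand, and the sources used here do not say whether counting used strand.

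**Figure D2:**
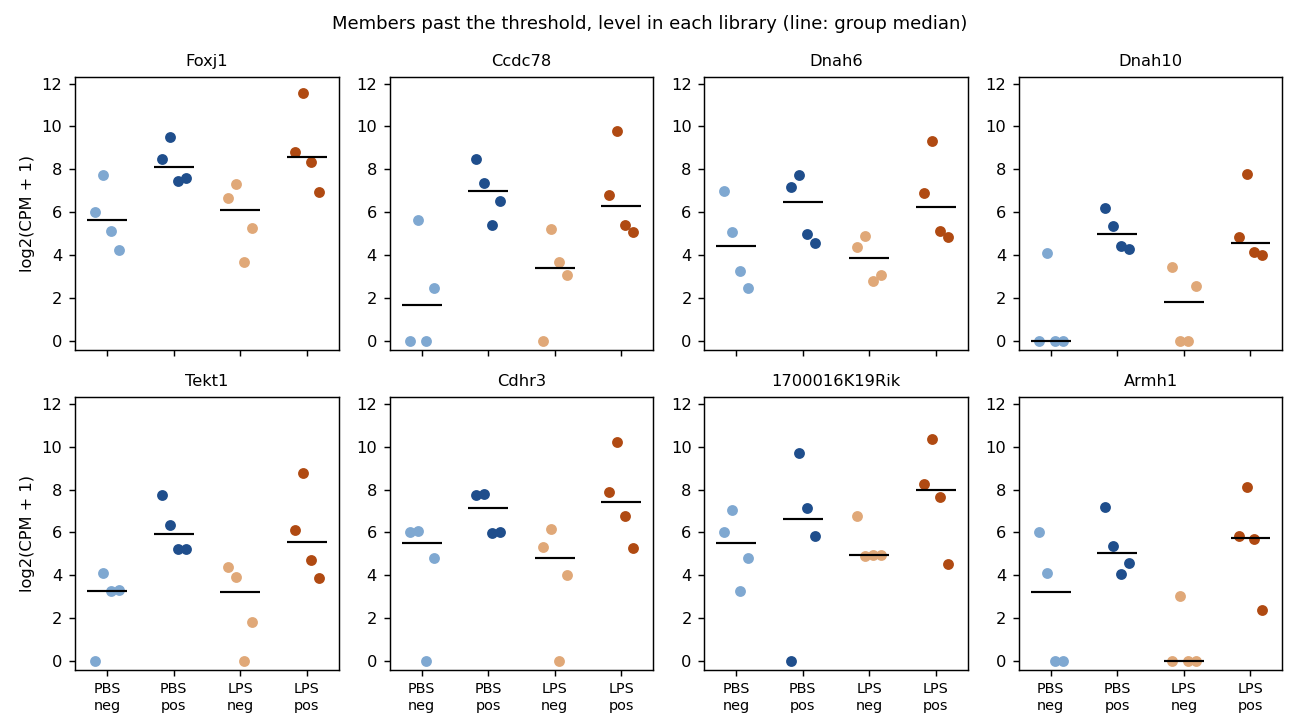
Level of the 8 members past the threshold, as log2(CPM + 1), in each library by group (neg, p16-negative; pos, p16-positive), with a line at the group median. The p16-positive medians lie above the p16-negative ones in both treatments for all 8, and LPS p16-positive replicate 2 is the top point of its group in each panel.

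Of the dynein motors and chains, 2 of 6 tested members rose, both heavy chains of inner arms. Dnah10 (chr5:124725085-124834308) was at 0, 16.4, 0 and 0 CPM in PBS p16-negative and at 72.1, 40.4, 20.7 and 18.5 CPM in PBS p16-positive libraries. After LPS it was at 9.90, 0, 0 and 4.98 CPM against 28, 218, 16.8 and 15.3 CPM. These groups did not overlap in either treatment, although the values rest on 4 UMIs in the p16-negative and 106 in the p16-positive libraries. The log2 fold change was 3.88 (SE 0.81, edgeR adjusted p = 0.0139, and 0.140 without LPS p16-positive replicate 2). Dnah6 (chr6:73017603-73222227) had 4.46 to 127 CPM in PBS p16-negative and 23.1 to 212 CPM in PBS p16-positive libraries, and 6.01 to 28.6 CPM against 28.1 to 643 CPM after LPS, with overlap in both treatments. Its log2 fold change was 3.27 (SE 0.72, edgeR adjusted p = 0.0173, and 0.131 without that library). The 4 others did not pass. Dnaic2, an intermediate chain of the outer arm, had a log2 fold change of 2.48 that was 0.65 without LPS p16-positive replicate 2. Dynlrb2, a light chain of dynein found in multiciliated cells, had 0.34, and −0.68 without it.

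Tekt1 (chr11:72344717-72362442), a filament protein of the doublet wall, rose with a log2 fold change of 3.57 (SE 0.73, edgeR adjusted p = 0.0139, and 0.115 without LPS p16-positive replicate 2). It had 0, 16.4, 8.52 and 8.92 CPM in PBS p16-negative and 216, 80.9, 36.2 and 36.9 CPM in PBS p16-positive libraries, without overlap. After LPS it had 19.8, 14.3, 0 and 2.49 CPM against 67.2, 436, 25.3 and 13.6 CPM, where p16-positive replicate 4 lay below the first 2 p16-negative libraries. The other tektins had 2.62 (Tekt2, adjusted p = 0.0894) and 2.34 (Tekt4, adjusted p = 0.231).

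Of the 4 ciliated cell markers 3 rose. Cdhr3 (chr12:33033795-33092901), a cadherin of ciliated airway cells, was at 63.5, 65.8, 0 and 26.7 CPM against 216, 222, 62.0 and 64.6 CPM after PBS, and at 39.6, 71.4, 0 and 14.9 CPM against 235, 1188, 109.5 and 38.3 CPM after LPS. Its log2 fold change was 3.11 (SE 0.67, edgeR adjusted p = 0.0146, and 0.107 without LPS p16-positive replicate 2). 1700016K19Rik (chr11:75999912-76003569), a gene without an established function, had 3.04 (SE 0.67, adjusted p = 0.0174, and 0.0859 without it), and Armh1 (chr4:117213326-117251917), an armadillo-like protein, had 4.41 (SE 0.94, adjusted p = 0.0146, and 0.115 without it). 1700016K19Rik was uneven within groups, with 0, 839, 140 and 55.4 CPM in the PBS p16-positive libraries. Armh1 rested on 3 UMIs in the p16-negative libraries, and 81 of its 121 p16-positive UMIs came from LPS p16-positive replicate 2.

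Tppp3, a tubulin-binding protein, differed from the other 3 markers in its levels. It had 254, 395, 273 and 343 CPM in PBS p16-negative and 721, 374, 351 and 471 CPM in PBS p16-positive libraries, and 277, 229, 90.1 and 309 CPM against 190, 974, 211 and 267 CPM after LPS. The groups overlapped in both treatments, and it was found in all 16 libraries. Its log2 fold change was 0.63 (SE 0.34, edgeR adjusted p = 0.590), and 0.16 without LPS p16-positive replicate 2.

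The parts that shape the beat had positive values but no call. Rsph9 and Rsph1, of the radial spoke head, had log2 fold changes of 2.57 (SE 0.73, edgeR adjusted p = 0.0616) and 2.52 (SE 0.77, adjusted p = 0.0894), with 1.30 and 1.05 when LPS p16-positive replicate 2 was left out. Drc1 and Drc3, of the nexin-dynein regulatory complex, had 2.07 and 0.95. Dnaaf3 and Dnaaf1, which act in the cytoplasm to assemble dynein arms, had 2.61 and 1.2. The 3′ end of Dnaaf3 overlaps Tnni3 on the same strand, so its reads may be shared between them. On the opposite strand the 3′ end of Rsph9 overlaps Mrps18a and that of Dnaaf1 overlaps Taf1c. Ccdc40, needed to place the arms along the doublet, held 17 UMIs and was not tested.

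None of the 10 tested Cfap genes, a family named after proteins of cilia and flagella, passed the test. Their log2 fold changes ran from 0.01 to 2.64 with a median of 2.28. Cfap100 had 2.64 (SE 0.78, edgeR adjusted p = 0.0704) and Cfap65 2.61 (SE 0.85, adjusted p = 0.120), and 1.2 and 1.18 without LPS p16-positive replicate 2. The 3′ end of Cfap100 overlaps Zxdc on the opposite strand. At the low end, Cfap20 had 0.47 and Cfap410, which in humans is also tied to primary cilia, 0.01. The 7 tested intraflagellar transport genes, which build primary as well as motile cilia, had 0.17 to 1.40 with a median of 0.78 and no call. Ift20 had 0.40 and Ift27 0.53. Of the other Spag genes, named as sperm antigens, Spag7 had 0.53 (SE 0.33), and Spag8 had 1.62 (SE 0.99) on 30 UMIs. Among the 15 untested members 13 had a higher summed CPM in the p16-positive libraries, and 8 without LPS p16-positive replicate 2. Each listed gene had at least 6 UMIs in some library, and these 15 reached that only in LPS p16-positive libraries. Their direction is therefore in part fixed by the listing.

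**Figure D3:**
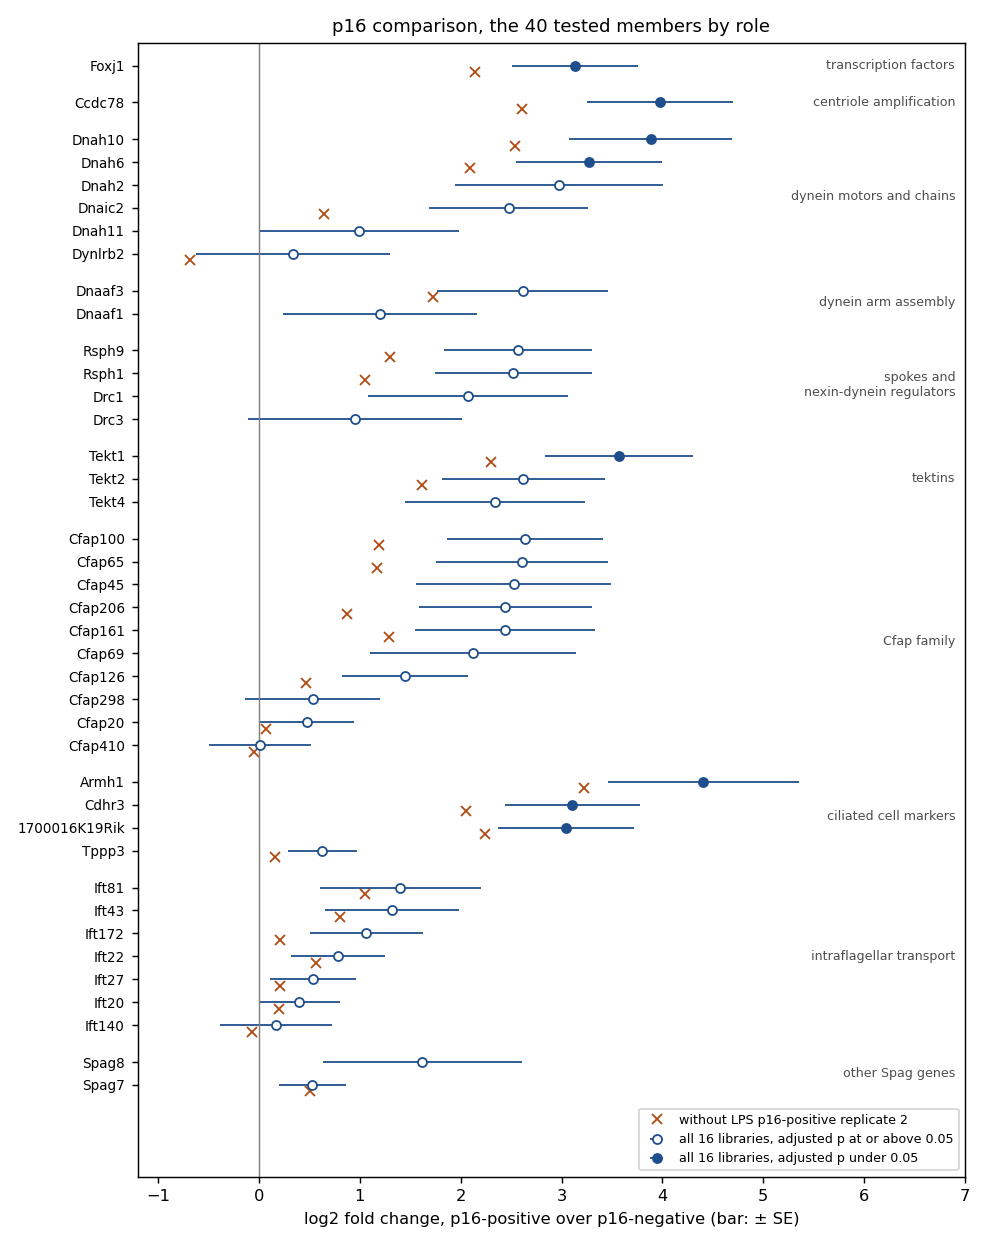
Log2 fold change of the p16-positive over the p16-negative fraction for the 40 tested members by role, with SE bars, filled where the edgeR adjusted p was under 0.05. Crosses give the value without LPS p16-positive replicate 2, where 10 members had too few UMIs and have none. The 8 filled points lie between 3.04 and 4.41, the intraflagellar transport genes between 0.17 and 1.40, and every cross lies left of its point.

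Within each treatment no member was called in the model of 4 group means with all 16 libraries and the minimum of 30 UMIs, by edgeR, DESeq2 or limma-voom. After PBS 33 of 40 members had positive values with a median of 0.83. No gene of the 6516 was called higher (0%), while 5 members and 361 of all tested genes had an unadjusted p under 0.05. Values for the 8 members were 2.21 for Foxj1 (SE 0.88), 3.25 for Ccdc78 (SE 1.15), 3.04 for Dnah10, 2.11 for Dnah6, 2.44 for Tekt1, 1.93 for Cdhr3, 2.57 for 1700016K19Rik and 2.25 for Armh1. Same-numbered PBS libraries deviated together, and with the pair as a block 4 of 40 members (10%) were called, against 2.07% of all tested genes. These were Foxj1 at 2.36 (SE 0.43, edgeR adjusted p = 3.72e-05), Ccdc78 at 3.18 (SE 0.66, adjusted p = 0.000409), 1700016K19Rik at 2.15 (SE 0.49, adjusted p = 0.00197) and Cdhr3 at 1.78 (SE 0.53, adjusted p = 0.0386). These differences were taken between PBS libraries, while the estimate of spread was shared with the LPS libraries. The fit also blocked the LPS libraries by number, although their numbers were not taken to pair them. Deviations of same-numbered PBS libraries correlated at 0.146 to 0.345. In replicate 3 this was 0.339, against 0.307 for the best of the other numbers. The same 4 members were called in the block fit without LPS p16-positive replicate 2.

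After LPS all 40 members had positive values with a median of 3.32, and 3.07 with Dnah11 and Dnah2, at 0 in all LPS p16-negative libraries, set at their bounds. No gene was called higher (0%), while 26 members and 445 of all tested genes had an unadjusted p under 0.05. This count of 0 did not hold without the minimum, where edgeR called 10 of 55 members and 0.629% of all genes, nor without LPS p16-positive replicate 4, where it called 18 of 34 members and 2.92% of all tested genes. It called 5 of 38 members without LPS p16-positive replicate 1, against 0.14% of all tested genes. Without LPS p16-positive replicate 3 it called 9 of 40, against 0.62%, and without PBS p16-positive replicate 2 it called 6 of 37, against 0.156%. Same-numbered LPS libraries did not all deviate together, so their block fit is given with the processing alternatives. Foxj1 had 3.80 (SE 0.83), Ccdc78 4.32, Dnah10 4.18, Dnah6 3.93, Tekt1 4.27, Cdhr3 3.82, 1700016K19Rik 3.37 and Armh1 5.81, with edgeR adjusted p from 0.0556 to 0.125. Without LPS p16-positive replicate 2 the median over 30 members was 1.05 and Foxj1 had 2.04. Whether the p16 difference itself differed between treatments was tested as an interaction, with 0 members and 0% of all tested genes called, and 3 members at an unadjusted p under 0.05 among 101 genes. The median interaction of the members was 1.85, and −0.04 without that library. Groups that did not overlap were found for 2 of 40 members (5%) after PBS, Dnah10 and Tekt1, against 2.52% of all tested genes. After LPS they were found for 5 (12.5%), Dnaaf3, Dnah10, Ift22, Ift81 and Rsph9, against 1.69%.

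The number of calls turned on single libraries. Leaving out 1 library at a time gave 0 to 15 called members in the p16 comparison. Without LPS p16-negative replicate 4, the deepest of its group, none was called (adjusted p = 0.0607 for Ccdc78 and 0.0640 for Foxj1), and neither was any other tested gene (0%). Without LPS p16-positive replicate 2 there were 2, and without LPS p16-positive replicate 4, the deepest library, 15 of 34, where 5% of all tested genes were called. The 13 others gave 6 to 11, where 0.373 to 2.26% of all tested genes were called. Without both PBS replicate 1 libraries 8 of 38 were called, against 0.666% of all tested genes.

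**Figure D4:**
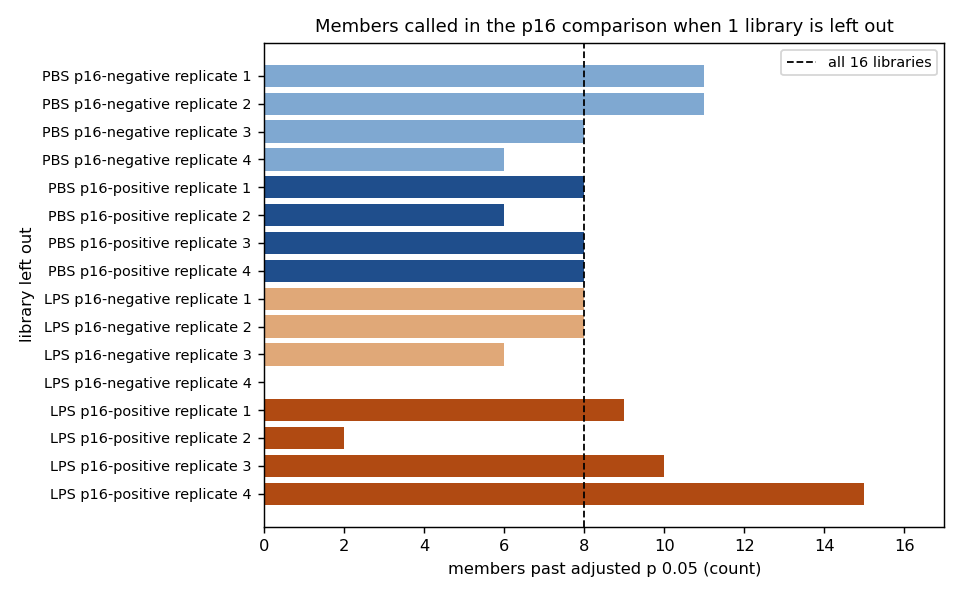
Number of members past an edgeR adjusted p of 0.05 in the p16 comparison after leaving out the library named on the vertical axis, coloured by group, with the count of 8 from all 16 libraries as a dashed line. The bar is at 0 without LPS p16-negative replicate 4, at 2 without LPS p16-positive replicate 2 and at 15 without LPS p16-positive replicate 4.

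The makeup of the member UMIs differed between the fractions as a description. After PBS, Foxj1 and Rfx2 together made up 6.09% of the p16-negative and 12.9% of the p16-positive member UMIs, and after LPS 6.88% and, without replicate 2, 12.9%. In LPS p16-positive replicate 2 they made up 21.7%. As a share of the member UMIs, intraflagellar transport genes ran the other way, with 21.7 and 14% after PBS and 23.8 and 19.7% after LPS (the latter without replicate 2). In LPS p16-positive replicate 2 they made up 4.91%, although their level was highest there. Summed over a group, their level changed less than that of Ccdc78, a member that passed the test. The transport genes were at 256 CPM in PBS p16-negative and 291 CPM in PBS p16-positive libraries, where Ccdc78 was at 9.56 and 91.9 CPM. A change smaller than that of Ccdc78 was not particular to them, since the Cfap family was at 194 and 257 CPM in these groups. After LPS the transport genes were at 217 CPM in p16-negative libraries, 281 CPM in p16-positive ones without replicate 2, and 694 CPM in replicate 2. Ccdc78 was at 12.4, 43.4 and 871 CPM there.

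**Figure D5:**
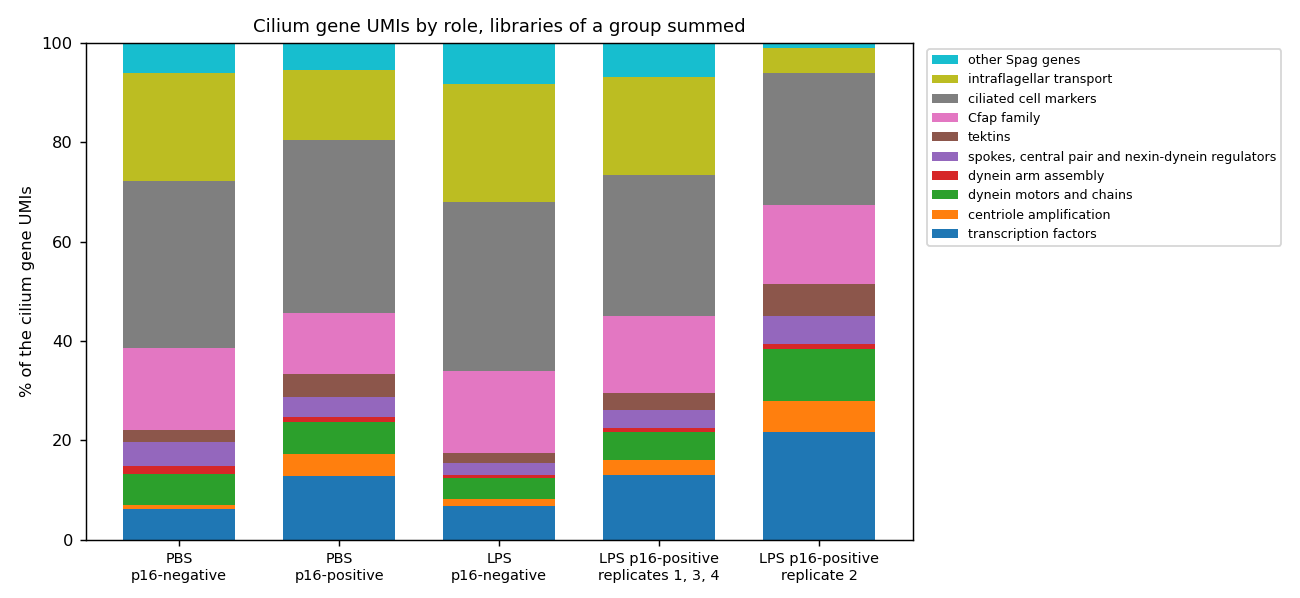
Percent of the cilium gene UMIs that fell on each role, with the libraries of a group summed and LPS p16-positive replicate 2 drawn on its own. Transcription factors (bottom) take 6.09% in PBS p16-negative and 21.7% in LPS p16-positive replicate 2, and intraflagellar transport takes 21.7% and 4.91%.

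Ratios within a library were compared where Foxj1 had at least 20 UMIs, which held for 8 libraries, 7 of them p16-positive. Per 100 Foxj1 UMIs there were 30.6 to 51.9 of Cdhr3, and 39.0 in LPS p16-positive replicate 2. Dnah6 ran from 10.5 to 29.2 with 21.1 in that library, and Tekt1 from 7.89 to 20.6 with 14.3. Ccdc78 ran from 13.2 to 46.4 with 28.6. For these 4 genes the library that stood apart in level lay inside the range of the others. Cfap100 ran from 5.26 to 20.8 and was at its highest, 20.8, in that library. Tppp3 ran from 32.0 to 243 and was at its lowest, 32.0, in that library, and 1700016K19Rik ran from 17.9 to 115 with 43.2. The points share library depth and are few, so they carry no test.

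The other axis of the design, LPS against PBS with the fraction as a term, gave no called member, against 0.921% of all tested genes, with 6 members and 604 of all tested genes at an unadjusted p under 0.05. DESeq2 called 1 of 27 members, against 2.98% of all tested genes, and limma-voom 1 of 40, against 1.95%. The median of the members was 0.76 with 34 of 40 positive, and −0.24 with 9 of 30 positive when LPS p16-positive replicate 2 was left out, so the sign of the list followed that library. The median of all tested genes was 0.14 and 0.10. Foxj1 had 1.23 (SE 0.60, edgeR adjusted p = 0.525), and 0.12 without it. Cfap410 kept its value, at 1.62 (SE 0.48, adjusted p = 0.103) and 1.53 (adjusted p = 0.0632). It had 63.5, 0, 0 and 53.5 CPM in PBS p16-negative and 0, 30.3, 10.3 and 27.7 CPM in PBS p16-positive libraries, where 63.5 CPM stood for 1 UMI. After LPS it had 49.5, 78.6, 60.1 and 44.8 CPM against 72.8, 74.9, 67.4 and 63.8 CPM. The PBS values rest on 13 UMIs in the p16-negative and 17 in the p16-positive libraries.

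Cilium genes outside the symbol rule were described in the same way. Of a list of 58, 29 were listed and 21 tested, 7 of them only through LPS p16-positive replicate 2, so that their direction was in part fixed by the minimum. In the p16 comparison all 21 had positive values with a median of 2.37 and 5 were called, Zmynd10, Mns1, Ccdc151, Catip and Dynll2, again read against 1.41% of all tested genes. Zmynd10, which helps to assemble dynein arms, had 4.78 (SE 1.09, edgeR adjusted p = 0.0190) on 69 UMIs. Zmynd10 and Mns1 are among the 7 that passed the minimum only through LPS p16-positive replicate 2, so their calls lean on that library. Dynll2, a dynein light chain that also serves other motors, had 1.93 (SE 0.45, adjusted p = 0.0217). Leaving out LPS p16-positive replicate 2 left 14 tested, 12 of them positive with a median of 1.40, and 0 were called, with 8 at an unadjusted p under 0.05.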

How the data were processed

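RNA of 16 libraries of sorted mouse AMs was made into 3′ UMI libraries by bulk MARS-seq. The authors processed reads with the UTAP pipeline against mm10 and RefSeq annotation, counting uniquely mapped 3′ reads, and deposited raw UMI counts per gene. They also deposited size-factor normalized signal and regularised log2 values (checked, not used), and fold changes and p-values of their own DESeq2 comparisons (not used). Neither the version of DESeq2 nor the use of strand in counting is stated.

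Genes with at least 30 UMIs were tested with edgeR 4.0.16 (quasi-likelihood test, TMM factors) in R 4.3.3 on the deposited counts, with Benjamini-Hochberg adjustment over 6516 genes. The p16 comparison carried treatment as a term, the LPS comparison the fraction, and the comparisons within a treatment and their interaction came from a model of 4 group means. All 16 libraries entered each fit unless one is named as left out. SE is the log2 fold change divided by the root of F. Alternatives were RLE and upper-quartile factors, DESeq2 1.42.0, limma-voom (limma 3.58.1) with quality weights, no filter, filterByExpr, each library left out, both PBS replicate 1 libraries left out, and the replicate number as a block. The block without LPS p16-positive replicate 2 was added after seeing the data. Fits were tested on simulated data. Deviations of same-numbered libraries from their group means correlated at 0.146 to 0.345 over the 4 PBS pairs, and at −0.0001 to 0.610 over the 4 LPS pairs. The labels give the numbers, and pairs were taken to hold in PBS. Replicates were no duplicates (chi-square per degree of freedom 3.33 to 43.1 over 24 pairs). Shares of UMIs have 95% exact Clopper-Pearson intervals that cover counting error only. A bound takes 3 UMIs over the group.

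Gene positions are from GENCODE vM21 and sequences from RefSeq, both GRCm38, the assembly of mm10. Named are members past the threshold, those the rule lists singly, the 2 with most UMIs of each symbol family, and others that complete a family. Cfap410 in the LPS comparison, the members of the printed windows, Zmynd10 and Dynll2 were picked after their values were seen. The members and lists were chosen with earlier results of these data known.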

Additional observations from a re-analysis of the deposited data

Results flagged for a closer look

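Libraries far from the other 3 of their group were looked for in 40 groups of 4, over the share of the members and the levels of Tppp3 and the 8 called members. The gap to the next library, divided by the range of the group, was over the 95% critical value of Dixon in 12 groups, where chance gives about 1 in 20 for independent groups of continuous values. The groups here share the same 16 libraries, and the levels rest on few UMIs. The 8 called members were also picked by a test that leaned on LPS p16-positive replicate 2, so that 1 in 20 is no reference for that library. Of the 12 groups, 7 were LPS p16-positive replicate 2. It was at 1.41% of UMIs on the members (next 0.252%) and at 3047 CPM of Foxj1 (next 453), 974 of Tppp3 (267), 871 of Ccdc78 (112), 643 of Dnah6 (118), 436 of Tekt1 (67.2) and 218 of Dnah10 (28). The other 5 were single low or uneven levels. 1700016K19Rik had 839 CPM in PBS p16-positive replicate 2 (next 140) and 109 CPM in LPS p16-negative replicate 1 (next 30.0). PBS p16-negative replicate 2 had 49.3 CPM of Ccdc78 (next 4.46) and 16.4 CPM of Dnah10 (next 0), and LPS p16-negative replicate 2 had 7.14 CPM of Armh1 (next 0). The Dnah10 and Armh1 values stand for 1 UMI against 3 libraries at 0, which always passes this rule.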

How the results depend on the processing

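Percentages in parentheses are of all tested genes called in the same fit. Of the p16 comparison, 8 of 40 members were called with RLE factors (1.14%) and with upper-quartile factors (0.936%). DESeq2 called 8 of 27 (1.82%), and 11 of 55 were called without a filter (1.98%). The count was 3 of 14 with filterByExpr (0.752%), 1 (Foxj1) of 40 with limma-voom (0.138%) and 16 of 40 with the replicate block (4.77%), and 0 to 15 leaving out 1 library (0 to 5%). The replicate block without LPS p16-positive replicate 2, chosen after seeing the data, gave 7 of 30 (2.55%). Within PBS it gave 4 (2.6%), as did the block on all libraries (2.07%), and leaving out 1 library gave 0. Within LPS the count was 10 of 55 without a filter (0.629%), 13 of 40 with the replicate block (2.18%), 2 of 30 with the block and without that library (0.0962%), and 0 to 18 leaving out 1 library, with 6 without PBS p16-positive replicate 2 (0.156%) and, among the LPS p16-positive libraries, 5 without the first (0.14%), 9 without the third (0.62%) and 18 without the fourth (2.92%). In the LPS comparison 1 member, Cfap410, was called by DESeq2 (2.98%), by limma-voom (1.95%), with the replicate block (3.71%), with the block and without that library (5.51%), and without PBS p16-negative replicate 4 (0.814%), so leaving out 1 library gave 0 to 1. The interaction stayed at 0 in the settings run. The block changed no other call of a comparison. Over all 8 pairs the numbers were not taken to pair the libraries, and 7 of 8 p16-negative libraries correlated best with their own number. Mean shares over 3 libraries ran from 0.120 to 0.199% in PBS p16-negative, 0.252 to 0.347% in PBS p16-positive, 0.0834 to 0.115% in LPS p16-negative and 0.180 to 0.610% in LPS p16-positive.

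Signs turned in the p16 comparison for members that were never called. Dynlrb2 ran from −0.68 to 1.04 leaving out 1 library, below 0 without PBS p16-positive replicate 1 (−0.37), LPS p16-positive replicate 2 (−0.68) or LPS p16-negative replicate 4 (−0.10). It had −0.32 with limma-voom and −0.50 with the replicate block and without LPS p16-positive replicate 2. With limma-voom Dnaaf1 had −0.67, Drc3 −0.54 and Spag8 −0.61. The cause was not tested. Foxj1 was called in 24 of 25 alternatives, Ccdc78 in 23, Tekt1 in 22, Armh1 in 21 of 24, Cdhr3 in 21 of 25, Dnah10 in 20 of 24, and Dnah6 and 1700016K19Rik in 18 of 25. Depth limits the low members, since 1 UMI was 63.5 or 72.1 CPM in the PBS replicate 1 libraries.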
